A study of Mus musculus with 4 samples.

Results

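Voltage-gated sodium and calcium channels and the ClC chloride channels and exchangers were examined in sciatic nerves of Zeb2 cKO and control mice at postnatal day 7. The genes were taken by symbol, as every Scn gene ending in a or b, every Cacna, Cacnb, Cacng and Cacna2d gene, and every Clcn gene. This gave 48 of the 22096 gene symbols in the tables, with 13 sodium, 26 calcium and 9 chloride channel genes and 80 transcripts. Cacna1s, Scn4a and Clcn1, the channels of skeletal muscle fibres, were set apart from the other 45, which are called nerve channels here. The first group is Zeb2 cKO mice, in which Zeb2, encoding a zinc finger transcription factor, was conditionally deleted, and the second is mice labelled as controls. Both are on a mixed strain background, and each sample is RNA of pooled sciatic nerves. Neither the Cre line, the cells it acts in nor the deleted exons are given in the labels. They list 2 samples per group, and name 1 table of values under both. Whether a table holds 1 of these samples or combines both is not stated. Each group thus has 1 value per gene, called its library here, with no replicate values and no possible test between the groups. Zeb2 itself was at 19.5 FPKM (fragments per kilobase of transcript, scaled to sequencing depth) in the Zeb2 cKO library, against 34.4 FPKM in the control library, 1.76-fold lower.

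Sodium and calcium channels are built around a large pore-forming subunit, named alpha for sodium and alpha1 for calcium channels, which is joined by smaller subunits that steer its traffic and gating. In a peripheral nerve, sodium channels cluster at the nodes of Ranvier between myelin segments and carry the action potential. The cell bodies of sensory and motor neurons lie outside the sciatic nerve, so most messenger RNA for axonal channels is not in this tissue, and the RNA sampled is mainly that of Schwann cells, sheath cells, vessels and attached tissue. ClC proteins are either chloride channels of the plasma membrane or chloride/proton exchangers of endosomes and lysosomes.

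The libraries hold an estimated 20179390 reads on transcripts for Zeb2 cKO and 29614576 for control. Of the 48 channel genes, 25 had a mean of at least 1 FPKM over both libraries, the level at which ratios were read. These were the 3 muscle channels and 22 of the 45 nerve channels. Ratios are log2((FPKM Zeb2 cKO + 1)/(FPKM control + 1)), and a gene is counted as higher or lower from 2-fold on this scale. The pseudocount of 1 understates the change of low genes. Folds are plain ratios of FPKM, and counting intervals (95%, Clopper-Pearson on estimated reads) cover counting error only.

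Of the 25 genes, 2 were 2-fold or more higher in Zeb2 cKO, 8 were 2-fold or more lower and 15 lay within 2-fold. Among all 12903 genes at that level, 8.59% were higher and 6.25% lower. The share of higher genes is near that of all genes, and 3 of the 8 lower genes are the muscle channels. In either direction, 14.8% of all genes were past 2-fold. The median log2 ratio was -0.21 over the 22 nerve channels and -1.14 over the 3 muscle channels, against 0.18 over all genes. With Zeb2 cKO FPKM divided by the fold of this median, called rescaling to the median gene, 0 of the 25 genes were higher and 9 lower, against 6.25% and 7.29% of all genes. In these bulk samples fewer cells of a type and less RNA per cell cannot be told apart.

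**Figure D1:**
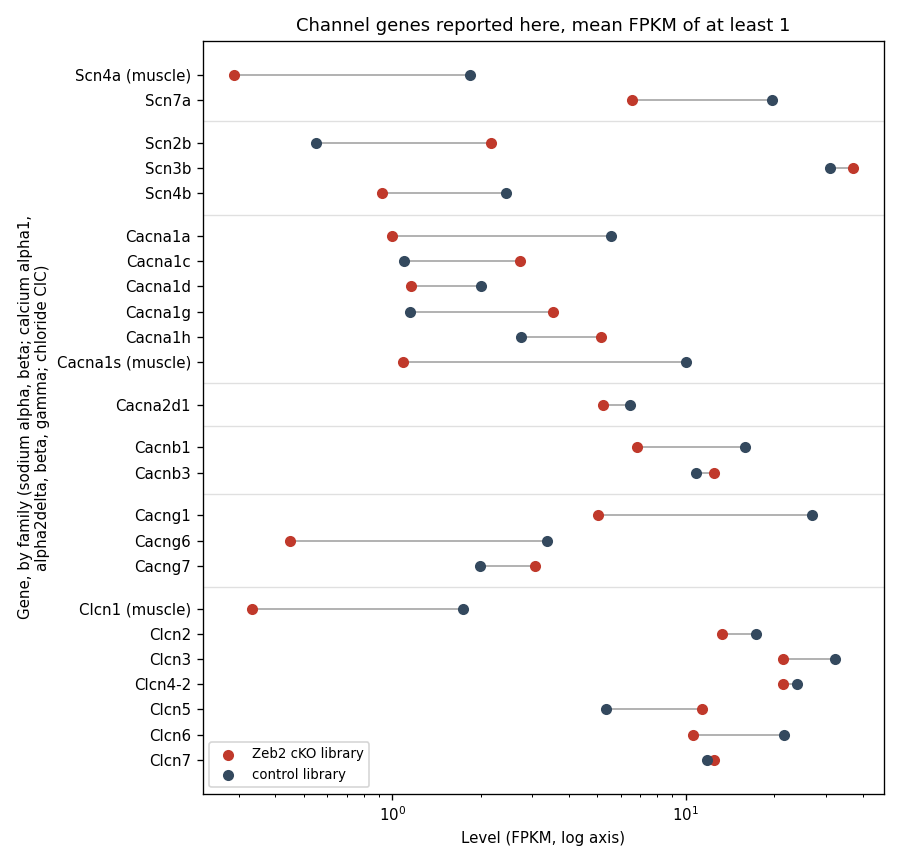
Level in FPKM (log axis) of the channel genes reported here at a mean of at least 1 FPKM, in families down the page, with 1 point for the Zeb2 cKO library and 1 for the control library. Cacna1s has the widest gap between the libraries, with 1.09 FPKM in Zeb2 cKO and 9.99 FPKM in control, while Scn3b, Cacnb3 and Clcn7 have nearly overlapping points.

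The channels of skeletal muscle were lower in the Zeb2 cKO library. Cacna1s, the alpha1 subunit of the muscle L-type calcium channel that senses voltage for contraction (chromosome 1, 137949478 to 138016399, mm9), was at 1.09 FPKM in Zeb2 cKO and 9.99 FPKM in control, 9.20-fold lower (counting interval 7.86 to 10.9). Scn4a, the sodium channel of muscle fibres (chromosome 11, 106179907 to 106210704), was at 0.288 FPKM in Zeb2 cKO and 1.83 FPKM in control, 6.37-fold lower (4.69 to 8.83). Clcn1, the chloride channel that stabilises the resting potential of muscle (chromosome 6, 42236684 to 42264655), was at 0.332 FPKM in Zeb2 cKO and 1.74 FPKM in control, 5.23-fold lower (3.53 to 8.02). All 3 kept 2-fold after rescaling to the median gene, and their intervals did not reach 1. The 18 listed skeletal muscle markers, none of them at 0, were all 2-fold or more lower, between 5.81-fold for Myh8 and 21.1-fold for Myh2. Their summed level was 979 FPKM in Zeb2 cKO and 8084 FPKM in control. The part of the muscle content of the samples in the channel values was not tested.

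Other subunits known from the muscle calcium channel complex, or found in muscle beside other tissues, stood in the nerve channel group under the rule. They were put together here after their values were seen. Cacng1, the gamma subunit of the muscle channel (chromosome 11, 107564532 to 107577790), was at 5.0 FPKM in Zeb2 cKO and 26.9 FPKM in control, 5.37-fold lower (4.52 to 6.43). Cacng6, a related gamma subunit of striated muscle (chromosome 7, 3425423 to 3435658), was at 0.448 FPKM in Zeb2 cKO and 3.37 FPKM in control, 7.51-fold lower (3.73 to 17.4) and resting on about 9 Zeb2 cKO reads. Cacnb1, the beta subunit of the muscle channel, which neurons also make, was 2.33-fold lower, at 6.82 FPKM in Zeb2 cKO and 15.9 FPKM in control. Scn4b, a sodium channel beta subunit of muscle and of sensory neurons, was at 0.925 FPKM in Zeb2 cKO and 2.45 FPKM in control, with a log2 ratio of -0.84 that is within 2-fold on the pseudocount scale. Cacna2d1, the alpha2delta subunit bound by gabapentin, was at 5.24 FPKM in Zeb2 cKO and 6.47 FPKM in control, within 2-fold. So 3 of these 5 were lower. Without them and the muscle channels, 2 of the remaining 17 nerve channels were lower, Scn7a and Cacna1a, and 2 were higher, Cacna1g and Scn2b. These are 11.8% each, where 6.25% of all genes were lower and 8.59% higher. The median log2 ratio of the 17 was 0.10. After rescaling, 0 of the 17 were higher and 3 were lower, with Clcn6 added, and their median was -0.073.

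The promoters of the muscle channels are shown because these genes were low together, and many muscle promoters hold E-boxes, the CANNTG words bound by muscle-determining factors such as MyoD and, as CACCTG, by Zeb proteins. The sequences are from RefSeq on GRCm38.p6, from 250 bases before to 50 bases after the gene start, printed 5′ to 3′ on the strand of the gene. Cacna1s lies at chr1:136052561-136052860, plus strand, and Clcn1 at chr6:42286435-42286734, plus strand. Capitals mark every CANNTG, a word that reads as CANNTG on both strands.
Cacna1s: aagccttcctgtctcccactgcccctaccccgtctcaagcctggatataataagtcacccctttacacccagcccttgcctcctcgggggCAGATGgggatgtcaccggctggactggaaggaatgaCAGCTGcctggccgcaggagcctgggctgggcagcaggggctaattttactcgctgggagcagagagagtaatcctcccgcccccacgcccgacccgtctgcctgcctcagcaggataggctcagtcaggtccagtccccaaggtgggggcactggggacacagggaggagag
Clcn1: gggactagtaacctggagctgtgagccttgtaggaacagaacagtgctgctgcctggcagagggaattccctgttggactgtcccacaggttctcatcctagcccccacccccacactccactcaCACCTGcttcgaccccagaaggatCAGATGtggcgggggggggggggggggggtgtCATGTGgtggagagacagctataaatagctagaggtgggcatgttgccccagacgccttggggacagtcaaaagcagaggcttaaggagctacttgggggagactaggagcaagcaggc
The Cacna1s promoter holds 2 such words, and the Clcn1 promoter holds 3, of which 1 is CACCTG. The Scn4a promoter (chr11:106349341-106349640, minus strand) holds no CANNTG in this window. Among all 32851 promoters in the table, 72.3% hold at least 1 CANNTG, 39.6% at least 2 and 17.6% at least 3, so these matches are a description and not a mark of the muscle genes.

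**Figure D2:**
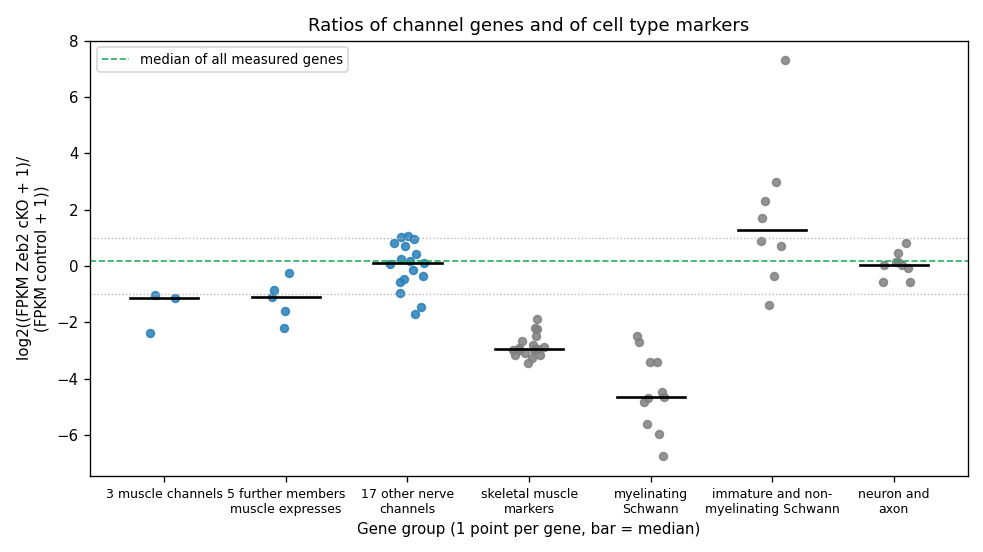
log2 ratio, Zeb2 cKO over control, of the 3 muscle channels, the 5 further members that muscle expresses, the 17 other nerve channels (blue) and 4 marker lists (grey), with 1 point per gene and a bar at each median. The 17 other nerve channels straddle the dashed median of all genes at 0.18, while every skeletal muscle and myelinating Schwann cell marker lies below -1.

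Sodium channel alpha subunits were led by Scn7a in both libraries. Scn7a encodes Nax, an atypical family member that responds to extracellular sodium and is known from glia and nonmyelinating Schwann cells (chromosome 2, 66511483 to 66622967). It was at 6.56 FPKM in Zeb2 cKO and 19.7 FPKM in control, 3.01-fold lower (2.82 to 3.21), on about 1165 reads in Zeb2 cKO and 5141 in control. Its log2 ratio was -1.45, and -1.61 after rescaling. It made up 63.1% of the summed FPKM of the 9 alpha genes in Zeb2 cKO and 87.2% in control. Of 8 listed markers of immature and nonmyelinating Schwann cells, 4 were higher (Gfap, Ncam1, Cdh2 and Sox2) and 1, Ngfr, was lower. That list summed to 658 FPKM in Zeb2 cKO and 186 FPKM in control, with no marker at 0. All 11 measured markers of myelinating Schwann cells were lower, with a sum of 1159 FPKM in Zeb2 cKO and 27217 FPKM in control. The part of either cell type in the Scn7a value was not tested.

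The other nerve sodium channels stayed under a mean of 1 FPKM. Scn3a, Nav1.3, a channel of embryonic neurons that injured neurons make again (chromosome 2, 65295175 to 65405549), was at 1.61 FPKM in Zeb2 cKO and 0.104 FPKM in control, 15.5-fold higher (11.0 to 22.6), on about 372 reads in Zeb2 cKO and 35 in control. It was the 1 gene of the 23 under that level to pass 2-fold on the pseudocount scale, where 0.452% of all 9062 such genes were higher, 0.298% lower and 0.75% either. Scn9a, Nav1.7 of pain-sensing neurons, was at 0.766 FPKM in Zeb2 cKO and 0.116 FPKM in control, 6.61-fold higher (4.68 to 9.54) by FPKM. Scn8a, Nav1.6, the main channel of adult nodes, was at 0.713 FPKM in Zeb2 cKO and 0.579 FPKM in control. Scn10a and Scn11a, channels of nociceptors, and Scn1a rested on at most 14 estimated reads in either library. Of the 9 measured markers of neurons and axons, 0 were 2-fold apart, where 14.8% of all genes were. Their log2 ratios ran from -0.59 to 0.82, so these markers differed in both directions. The whole list summed to 52.6 FPKM in Zeb2 cKO and 54.3 FPKM in control, with none at 0. The part of axons in the Scn3a and Scn9a values was not tested. Scn2a1, Nav1.2 of immature nodes, whose symbol the rule does not take, was at 0.662 FPKM in Zeb2 cKO and 0.649 FPKM in control.

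The beta subunits are single-pass proteins with an immunoglobulin domain that also act in cell adhesion. Scn3b was the highest of all 48 genes in Zeb2 cKO, at 37.1 FPKM, against 31.0 FPKM in control. It was within 2-fold, with a log2 ratio of 0.25. Scn2b, which links to the alpha subunit by a disulfide bond (chromosome 9, 44925959 to 44938153), was at 2.17 FPKM in Zeb2 cKO and 0.551 FPKM in control, 3.95-fold higher (3.08 to 5.09). Its log2 ratio was 1.03, which became 0.91 after rescaling, so it did not keep 2-fold there. The 9 alpha genes summed to 10.4 FPKM in Zeb2 cKO and 22.6 FPKM in control.

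The promoters of Scn7a and Scn2b are shown as those of a lower and a higher nerve sodium channel gene, with the source and the capitals as above. Scn7a lies at chr2:66784861-66785160, minus strand, and Scn2b at chr9:45117626-45117925, plus strand, on GRCm38.p6.
Scn7a: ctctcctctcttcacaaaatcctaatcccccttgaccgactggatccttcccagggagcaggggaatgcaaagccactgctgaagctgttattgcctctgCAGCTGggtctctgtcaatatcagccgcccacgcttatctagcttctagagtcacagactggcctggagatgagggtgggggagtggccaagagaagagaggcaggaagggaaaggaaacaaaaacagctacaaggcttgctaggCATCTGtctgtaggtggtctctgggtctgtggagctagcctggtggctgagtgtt
Scn2b: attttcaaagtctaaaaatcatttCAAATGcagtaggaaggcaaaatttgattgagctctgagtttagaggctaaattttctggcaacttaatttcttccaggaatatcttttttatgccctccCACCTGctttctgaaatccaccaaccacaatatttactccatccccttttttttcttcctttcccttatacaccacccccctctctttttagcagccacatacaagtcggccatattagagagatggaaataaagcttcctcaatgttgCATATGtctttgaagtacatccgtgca
The Scn7a promoter holds 2 CANNTG words and no CACCTG on either strand. The Scn2b promoter holds 3, of which 1 is CACCTG. That word, searched on both strands and itself a CANNTG word, is in 20.2% of all promoters in the table. Entries were found for 36 of the 48 genes, 50 promoters in all, and 10 of them hold it. Of the 11 genes past 2-fold, Scn3a included, 7 have entries, with 8 promoters, and 2 of these, Clcn1 and Scn2b, hold it. Cacna1a, Cacna1g, Cacng1 and Scn3a have no entry.

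Calcium channel alpha1 genes went both ways. Cacna1a, Cav2.1, the P/Q-type channel of nerve terminals (chromosome 8, 86939263 to 87164148), was at 0.999 FPKM in Zeb2 cKO and 5.54 FPKM in control, 5.55-fold lower (4.78 to 6.48), on about 192 reads in Zeb2 cKO and 1564 in control. It was the most abundant nerve alpha1 gene in control and was below Cacna1h, Cacna1g, Cacna1c and Cacna1d in Zeb2 cKO. The myelinating Schwann cell and skeletal muscle markers given above were low in the same library, and their part was not tested. Cacna1g, Cav3.1, a T-type channel that opens at low voltage (chromosome 11, 94269705 to 94335512), was at 3.51 FPKM in Zeb2 cKO and 1.15 FPKM in control, 3.06-fold higher (2.69 to 3.51). Cacna1h, Cav3.2, also T-type, was at 5.14 FPKM in Zeb2 cKO and 2.74 FPKM in control. Cacna1g passed 2-fold on the pseudocount scale (log2 ratio 1.07) but not after rescaling (0.93) or for its most abundant transcript alone (0.91), and Cacna1h did not pass (0.71).

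Among L-type genes, Cacna1c, Cav1.2, the channel of heart and smooth muscle and of many neurons and glia, was at 2.72 FPKM in Zeb2 cKO and 1.10 FPKM in control, 2.48-fold higher (2.16 to 2.86). Its log2 ratio of 0.83 was within 2-fold on the pseudocount scale. The transcript with the highest FPKM over both libraries gave 1.71 alone. That transcript held 86.6% of the gene's FPKM in Zeb2 cKO but 2.65% in control, where the 8224-base transcript held 48.0%. Cacna1d, Cav1.3, was at 1.16 FPKM in Zeb2 cKO and 2.00 FPKM in control, within 2-fold, and its locus overlaps Dcp1a and Chdh. Cacna1c overlaps Dcp1b, Cacna1h overlaps Tpsg1, Scn2b overlaps Gm10684 and Scn9a overlaps Gm13629, and reads of overlapping genes may be shared. Of 9 markers of pericytes and smooth muscle, 2 were higher (Rgs5 and Cspg4) and none lower, and neither kept 2-fold after rescaling (log2 ratios 0.85 and 0.86), with sums of 317 FPKM in Zeb2 cKO and 208 FPKM in control. The part of these cells in the Cacna1c value was not tested. Over the 5 measured nerve alpha1 genes 1 was higher, 1 lower and 3 within 2-fold.

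N-type and R-type genes of nerve terminals were low in both libraries but higher in Zeb2 cKO by FPKM. Cacna1b, Cav2.2, was at 0.400 FPKM in Zeb2 cKO and 0.0440 FPKM in control, 9.09-fold higher (4.80 to 19.2), with about 11 control reads. Cacna1e, Cav2.3, was at 0.721 FPKM in Zeb2 cKO and 0.0911 FPKM in control, 7.92-fold higher (5.66 to 11.3). Their log2 ratios with the pseudocount were 0.42 and 0.66, so neither counts as 2-fold apart. Cacna1i, the third T-type gene, had about 6 reads in each library, and Cacna1f, a retinal channel, was listed at 0 in Zeb2 cKO and had about 2 reads in control.

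**Figure D3:**
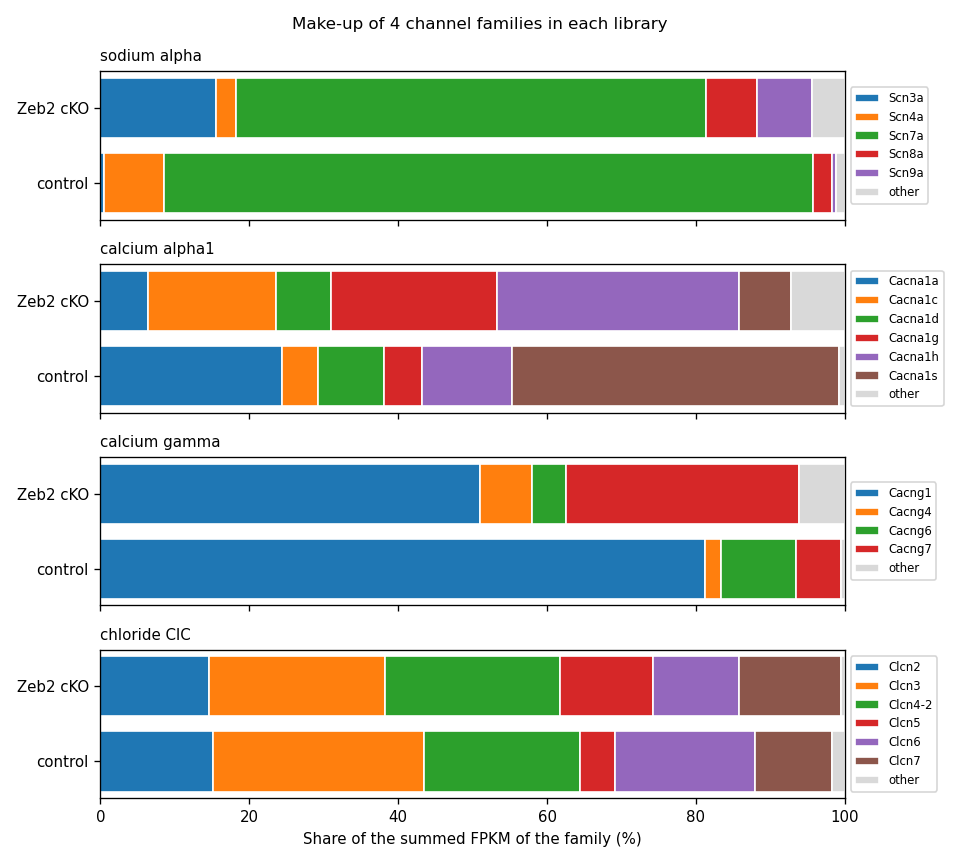
Share of the summed FPKM of the sodium alpha, calcium alpha1, calcium gamma and chloride ClC genes (%), with the Zeb2 cKO library above the control library and genes of at least 5% in either library in colour. Among alpha1 genes, Cacna1s and Cacna1a together fill most of the control bar, and Cacna1h, Cacna1g and Cacna1c most of the Zeb2 cKO bar.

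The make-up of the alpha1 family differed accordingly. Cacna1s held 6.89% of its summed FPKM in Zeb2 cKO and 44.0% in control, and Cacna1a held 6.34% in Zeb2 cKO and 24.4% in control. Cacna1h held 32.6% in Zeb2 cKO and 12.1% in control, and Cacna1g 22.3% in Zeb2 cKO and 5.06% in control. The family summed to 15.8 FPKM in Zeb2 cKO and 22.7 FPKM in control, and without Cacna1s to 14.7 FPKM in Zeb2 cKO and 12.7 FPKM in control.

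Among accessory calcium channel subunits, Cacna2d1 made up 96.6% of the alpha2delta FPKM in each library, and Cacna2d2, Cacna2d3 and Cacna2d4 were below 0.2 FPKM throughout. The transcript estimates of Cacna2d1 differed more than its sum. The transcript of 7472 bases was at 0.583 FPKM in Zeb2 cKO and 3.99 FPKM in control, and the one of 7400 bases was at 2.44 FPKM in Zeb2 cKO and 0.0118 FPKM in control. Both span the same locus and differ little in length, and the split between them is an estimate of Cufflinks with no replicate. Cacnb3, the beta subunit common in neurons and smooth muscle, was at 12.5 FPKM in Zeb2 cKO and 10.8 FPKM in control, and was more abundant than Cacnb1 in Zeb2 cKO and less abundant in control. Cacnb2 and Cacnb4 were under 1 FPKM in both libraries. Cacng7, a gamma relative that regulates AMPA receptors and calcium channel messenger RNA, was at 3.07 FPKM in Zeb2 cKO and 2.00 FPKM in control, within 2-fold. Cacng2, Cacng4, Cacng5 and Cacng8, most of them AMPA receptor partners, stayed under 0.7 FPKM. Cacng3 was at 0.353 FPKM in Zeb2 cKO on about 13 reads and was listed at 0 in control.

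ClC genes of the nerve had the highest summed FPKM of the families. The 8 nerve ClC genes summed to 90.6 FPKM in Zeb2 cKO and 112 FPKM in control, and all 6 measured ones were within 2-fold, with a median log2 ratio of -0.26. Clcn2, a plasma membrane channel of epithelia and glia, was at 13.3 FPKM in Zeb2 cKO and 17.3 FPKM in control, and its locus overlaps Fam131a. Clcn3, an endosomal exchanger, was at 21.5 FPKM in Zeb2 cKO and 32.3 FPKM in control, and Clcn4-2, now named Clcn4 in RefSeq, was at 21.4 FPKM in Zeb2 cKO and 23.9 FPKM in control. The size of the Clcn3 difference depended on the transcript. Its 5529-base transcript was at 7.49 FPKM in Zeb2 cKO and 14.9 FPKM in control. Those of 5705 and 5781 bases were at 0.879 and 1.21 FPKM in Zeb2 cKO, against 1.63 and 4.30 FPKM in control. Its 5250-base transcript was nearly level, at 11.9 FPKM in Zeb2 cKO and 11.4 FPKM in control. The log2 ratio of Clcn3 was -0.57 over all transcripts and 0.05 for the 5250-base transcript alone. That transcript had the highest FPKM over both libraries, while in control the 5529-base one was more abundant.

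Clcn5 and Clcn6 lay at the threshold in opposite directions. Clcn5, the endosomal exchanger mutated in Dent disease (chromosome X, 6735945 to 6765840), was at 11.3 FPKM in Zeb2 cKO and 5.35 FPKM in control, 2.11-fold higher (1.91 to 2.34). Clcn6, the late endosomal exchanger (chromosome 4, 147380593 to 147412876), was at 10.6 FPKM in Zeb2 cKO and 21.5 FPKM in control, 2.04-fold lower (1.87 to 2.21). Their log2 ratios were 0.96 and -0.96 with the pseudocount, and 0.79 and -1.13 after rescaling, where Clcn6 counts as lower. Clcn7, the lysosomal exchanger, was at 12.4 FPKM in Zeb2 cKO and 11.8 FPKM in control, and its partner Ostm1 was at 18.0 FPKM in Zeb2 cKO and 13.7 FPKM in control.

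Members that neighbour each other in the genome did not share a direction. Scn3a, Scn2a1, Scn1a, Scn9a and Scn7a lie in this order on chromosome 2 (mm9), and Scn3a and Scn9a were higher by FPKM in Zeb2 cKO, Scn7a was lower, and Scn2a1 was at nearly the same level. Scn2b and Scn4b lie next to each other on chromosome 9, and Scn2b was 3.95-fold higher and Scn4b 2.65-fold lower (2.11 to 3.35). On chromosome 11 Cacng1 was 5.37-fold lower beside Cacng4, at 0.694 FPKM in Zeb2 cKO and 0.697 FPKM in control. On chromosome 7 Cacng6 was 7.51-fold lower and Cacng7 1.54-fold higher.

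Partners of sodium channels and other sodium-conducting channels included larger differences than the channels themselves. Of 22 listed genes in the tables, 15 were measured, 5 were higher and 2 lower, where 8.59% of all genes were higher and 6.25% lower. Of the higher genes, Nalcn, Unc80, Fgf12 and Fgf14 reached the mean of 1 FPKM through Zeb2 cKO alone. Of the lower genes, Nfasc reached it through control alone. The list was also chosen with earlier results of these data known, so its counts are a description and not a test against all genes. The median log2 ratio was 0.36, against 0.18 over all genes, and 4 were higher after rescaling. Nalcn, the voltage-independent sodium leak channel (chromosome 14, 123675863 to 124026366), was at 7.27 FPKM in Zeb2 cKO and 0.317 FPKM in control, 22.9-fold higher (18.3 to 29.1). Its subunit Unc80 was at 3.85 FPKM in Zeb2 cKO and 0.0866 FPKM in control, 44.4-fold higher (32.6 to 62.0). Both passed 2-fold under rescaling as well, and Nalcn was more abundant than any nerve sodium channel alpha gene in Zeb2 cKO. Fgf12 and Fgf14, intracellular proteins that bind the tail of sodium channels, were 10.4-fold and 10.5-fold higher, at 4.82 and 3.34 FPKM in Zeb2 cKO, against 0.462 and 0.320 FPKM in control, while their relative Fgf13 was at 2.43 FPKM in Zeb2 cKO and 2.42 FPKM in control. Nfasc, which encodes the neurofascins of node and paranode, was at 0.612 FPKM in Zeb2 cKO and 27.7 FPKM in control, 45.2-fold lower. Gldn, gliomedin, the Schwann cell protein that clusters sodium channels at the node, was 9.91-fold lower, at 8.10 FPKM in Zeb2 cKO and 80.3 FPKM in control. Ank3, the ankyrin that anchors nodal channels, was at 13.5 FPKM in Zeb2 cKO and 15.0 FPKM in control. Cntn1, contactin, was 2.29-fold higher, and not 2-fold after rescaling (log2 ratio 0.89).

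In the list of calcium release and store-operated entry, 2 of 24 measured genes were higher and 6 lower, where 8.59% of all genes were higher and 6.25% lower. The count of higher genes is near that share. The lower ones were Casq1, Atp2a1, Ryr1, Jph1, Stac3 and Jph2, known from calcium handling in muscle. They lay between 3.42-fold lower for Jph2 and 9.50-fold lower for Casq1. Casq1, Atp2a1 and Ryr1 are also among the 18 muscle markers. The higher ones were Jph4, a junctophilin known from neurons, at 6.99 FPKM in Zeb2 cKO and 0.804 FPKM in control, and Gem, a small GTPase that restrains calcium channels, at 12.4 FPKM in Zeb2 cKO and 3.63 FPKM in control. The store-operated genes Orai1, Orai2, Orai3, Stim1 and Stim2 were all within 2-fold.

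Among other chloride channels and ClC partners, 2 of 19 measured genes were higher and 2 lower, counts near the shares of all genes (8.59% and 6.25%). After rescaling 1 was higher and 2 were lower. Mlc1 and Hepacam encode membrane proteins that form a complex in astrocytes, where Hepacam (GlialCAM) also binds ClC-2, and they differed in opposite directions. Mlc1 was at 7.77 FPKM in Zeb2 cKO and 0.210 FPKM in control, 37.1-fold higher (23.0 to 63.9), with about 17 control reads. Hepacam was at 9.46 FPKM in Zeb2 cKO and 26.7 FPKM in control, 2.82-fold lower (2.60 to 3.07). Of the volume-regulated channel subunits, Lrrc8b was 2.86-fold lower and Lrrc8d 2.15-fold higher, Lrrc8d not after rescaling (log2 ratio 0.87). The required subunit Lrrc8a was at 9.67 FPKM in Zeb2 cKO and 6.88 FPKM in control. Sptbn4 and Mcu of the 3 related lists had no row, and the acid-sensing channels were found under their older Accn symbols.

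**Figure D4:**
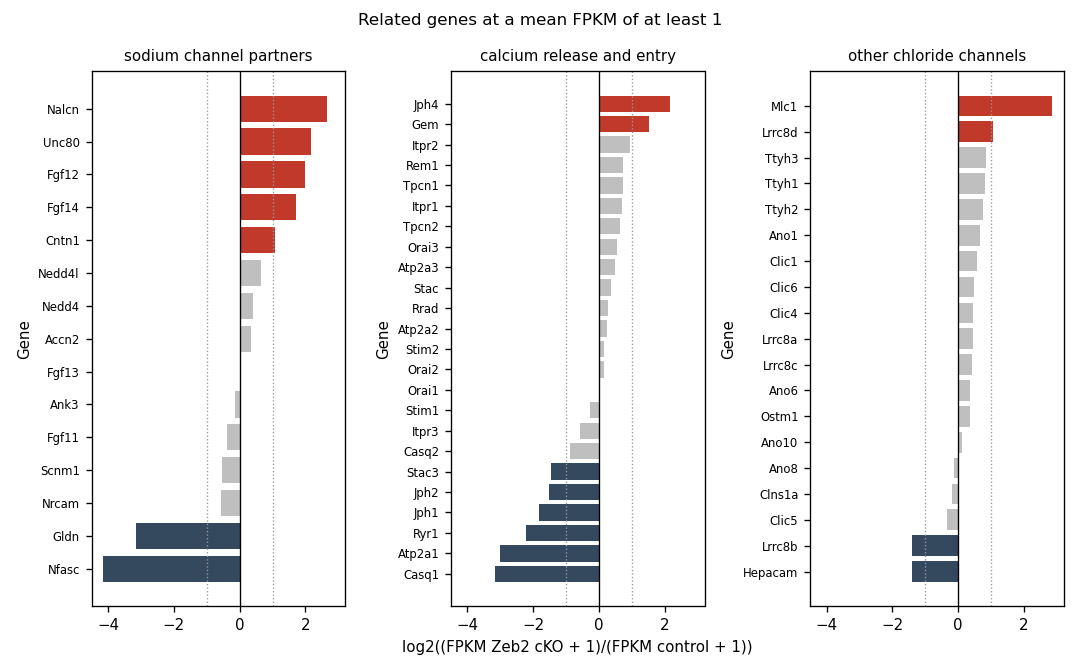
log2 ratio, Zeb2 cKO over control, of the measured genes of the 3 related lists, with dotted lines at 2-fold, red bars for higher, dark bars for lower and grey bars for genes within 2-fold. Nalcn, Unc80, Jph4 and Mlc1 head the higher side, and Nfasc, Gldn, Casq1, Lrrc8b and Hepacam stand at the lower end of their lists.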

How the data were processed

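Sciatic nerve RNA libraries of Zeb2 cKO and control mice were made with an Illumina TruSeq kit from total RNA, per the labels' protocols. CASAVA, TopHat, Cufflinks and Cuffdiff and the mouse build mm9 are named without versions, per the submitters' processing notes. The deposited FPKM values are per transcript, per the file headers. The deposited coverage signal gives reads per base, unscaled for depth. Each table is named under both samples of a group, so no sample number was given to it.

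Rows with status OK in both tables were kept (295 of 28107 left out, none of a channel gene), and FPKM was summed per symbol. Reads were estimated as coverage times length, divided by the median of such products between 30 and 80 bases in genes with 1 transcript (52.6 bases), taken as 1 read, in Python 3.11.15 with pandas 2.3.3 and scipy 1.17.1. FPKM tables keep no whole counts, so no count model was used. The code was tested on simulated data. The channel genes and all lists were chosen with earlier results of these data known. Channel genes at a mean of at least 1 FPKM are named, and some channel genes that enter the counts, sums and medians are not reported here by name. Of the related and marker lists, genes past 2-fold are named. Scn2a1, Ank3, Fgf13, Accn4, Lrrc8a, Ostm1 and the Orai and Stim genes were added after their values were seen. Other marker lists had these counts past 2-fold among measured genes. For these lists and the marker lists above, the shares of all measured genes are 8.59% higher and 6.25% lower. After rescaling they are 6.25% and 7.29%. Schwann cells of all stages had 1 of 7 higher and 3 lower, which became 0 and 4 after rescaling. Endothelial and macrophage lists had 0 of 7 each, with sums of 229 and 50.6 FPKM in Zeb2 cKO and 139 and 47.7 FPKM in control. Fibroblasts had 4 of 8 and perineurial cells 5 of 7 higher, which became 2 and 4 after rescaling. The alternatives were other pseudocounts, filters, scalings, row choices and fold thresholds. Promoter positions are on GRCm38.p6 and gene positions on mm9, and the 2 were not converted into each other. The sources used here do not state strand-specific counting, and reads of overlapping genes may be mixed.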

Additional observations from a re-analysis of the deposited data

How the results depend on the processing

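No paired analysis was possible because each group has 1 value per gene, which also means that leaving out a library could not be tried. The counts of 2 higher and 8 lower channel genes and the medians of -0.21 (nerve) and -1.14 (muscle) changed as follows. With a pseudocount of 0.1 or 0.5 the higher genes were 4, and the muscle median was -2.32 or -1.57. With no filter the nerve median was 0.0033, and with a mean of at least 5 FPKM there were 0 higher and 4 lower genes, with Cacna1s alone giving the muscle median of -2.40. Rescaled to the median gene, 0 were higher and the nerve median was -0.37. In another setting, only the transcript of each symbol with the highest FPKM over both libraries was taken. The nerve median was then -0.060, the log2 ratio of Clcn3 turned to 0.05, and Cacna1g was within 2-fold. Cacna1c (1.71) was past it and Cacna2d1 was lower (-1.66). The transcript so taken held 2.65% of Cacna1c FPKM in control and 11.1% of Cacna2d1 FPKM in Zeb2 cKO. A threshold of 1.5-fold gave 5 higher genes, and one of 3-fold gave 0 higher and 4 lower. Of these settings, only the main one and the rescaled one have shares of all genes given here. The counts of the other settings cannot be read against all genes. Scaled coverage gave a muscle median of -1.25. Without the muscle channels and the 5 further members that muscle expresses, chosen after their values were seen, 2 genes were lower and the nerve median was 0.10. The cause was not tested. Of 189 recomputed log2 ratios of single channel genes, 0 of those past 2-fold changed sign. Without libraries of the same group, depth sets only the counting error: genes with under 20 estimated reads, such as Cacng6 in Zeb2 cKO, have wide intervals.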

Other observations

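Further proteins of the sodium leak channel complex were looked up after the values of Nalcn and Unc80 were seen. Unc79, a scaffold of the complex, was at 0.570 FPKM in Zeb2 cKO and 0.128 FPKM in control, 4.46-fold higher (counting interval 3.10 to 6.53), and Fam155a, an auxiliary subunit, was at 0.846 FPKM in Zeb2 cKO and 0.383 FPKM in control, 2.21-fold higher (1.48 to 3.33). Neither was 2-fold apart with the pseudocount (log2 ratios 0.48 and 0.42). Accn4, an acid-sensing channel family member, was at 1.10 FPKM in Zeb2 cKO and 0.0439 FPKM in control, about 70 reads in Zeb2 cKO and 4 in control, and was under the mean of 1 FPKM.

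The splits between transcripts of a channel gene had no replicate. For Cacna1c, 1 transcript of 8230 bases held 86.6% of the gene's FPKM in Zeb2 cKO and 2.65% in control. For Cacnb1, the transcript of 1738 bases held 37.5% in Zeb2 cKO and 0.000935% in control, and that of 1600 bases held 23.7% in Zeb2 cKO and 56.2% in control.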
